A study of Mus musculus with 8 samples.

Results

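The genes described here encode inhibitory receptors of myeloid cells (microglia, macrophages, monocytes and granulocytes) and 2 of their ligands on other cells. They were chosen by name as Lilrb4a, Pirb, Pilra, Cd300a, Cd300lf, Cd33, Siglece and Sirpa for the receptors and Cd47 and Cd200 for the ligands, and all 10 were found among the 54752 genes in the tables. RNA-seq libraries were made from the right cerebral cortex 3 weeks after surgery, each from a single animal, with 4 in the sham group and 4 in the BCAS group. All were wild-type male C57BL/6 mice (C57BL/6 J in the study's methods) of 14 weeks that received no other agent. In bilateral carotid artery stenosis (BCAS), microcoils are wrapped around both common carotid arteries to lower the blood flow to the brain, here with the narrower coil on the right, and sham mice were operated on without coils. The comparison asks which of these genes differ in the cortex after hypoperfusion, and whole cortex was sequenced, so that a larger number of cells of a type and more RNA per cell cannot be told apart.

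Inhibitory receptors of this kind typically carry short tyrosine motifs (ITIMs) in their cytoplasmic tail, and the tails of the receptors named above were not examined here. Once a ligand is bound, Src-family kinases phosphorylate these motifs, and the tail recruits the phosphatases SHP-1 (Ptpn6), SHP-2 (Ptpn11) or SHIP1 (Inpp5d), which dampen signals from activating receptors that work through Tyrobp, Fcer1g and Syk. In the brain, Cd47 acts as a signal against phagocytosis through Sirpa, and Cd200 on neurons acts on Cd200r1 of microglia.

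The total count per library ran from 16759364 to 21794435, and the TMM scaling factors ran from 0.949 to 1.051. Of all genes, 17136 passed the filter on low counts. A gene was called at an adjusted p under 0.05 together with an absolute log2 fold change (BCAS over sham) above 1, where p came from the quasi-likelihood test of edgeR and was adjusted over those 17136 genes after Benjamini and Hochberg. By this rule 12.2% of the tested genes were called, 11.0% higher and 1.28% lower in BCAS mice. Levels are given as TMM-normalized counts per 1000000 counted reads (CPM). Neuronal markers were abundant in all libraries, with a summed level of 11362 to 13114 CPM over 14 genes in sham mice and 4489 to 9738 CPM in BCAS mice.

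Of the 10 genes, 6 were called higher in BCAS mice (Lilrb4a, Pirb, Pilra, Cd300a, Cd300lf and Cd33), none was called lower, and 4 were not called (Siglece, Sirpa, Cd47 and Cd200). The median log2 fold change over the 10 genes was 3.01, beside -0.0063 over all tested genes. All 10 passed the filter on low counts, which takes CPM from the total count without TMM scaling. On that measure Pilra and Cd300lf reached its level of 0.558 CPM in no sham library and Lilrb4a in 1 sham library. Being tested thus already depended on a higher level in the BCAS libraries for these 3 genes. Without the fold threshold, 7 of the 10 were higher and 1 was lower at an adjusted p under 0.05 by edgeR's quasi-likelihood test, and among all tested genes these shares were 19.2% and 12.8%, or 32.0% in either direction. The CPM of the groups did not overlap for 7 genes that were higher and 1 that was lower in BCAS mice, against 18.5% and 16.3% of all tested genes, or 34.8% in either direction.

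**Figure D1:**
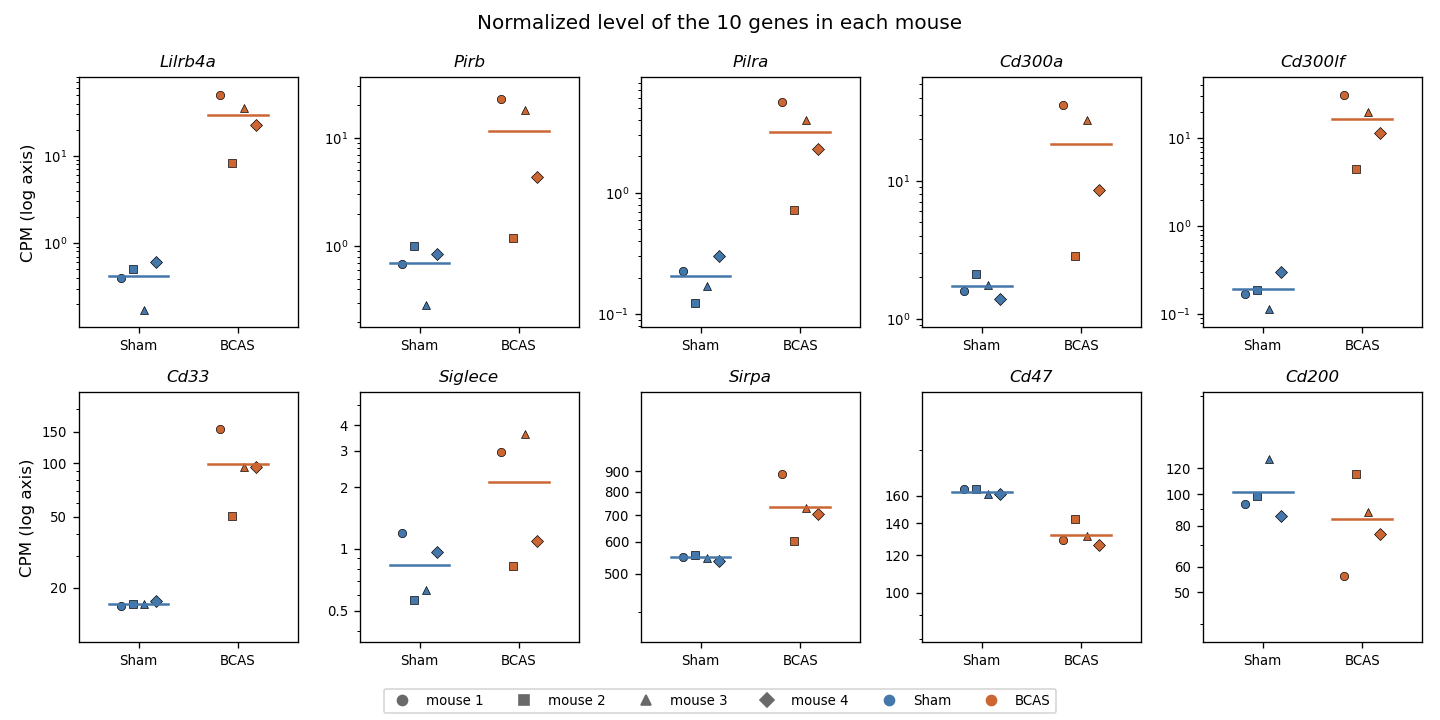
Normalized level (CPM, log axis) of the 10 genes in each mouse. Blue marks are sham mice and orange marks are BCAS mice, the marker shape gives the mouse number within its group, and the horizontal line is the group mean. The groups overlap for Siglece and Cd200, and BCAS mouse 2 is the lowest BCAS mouse for all 8 receptors.

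Lilrb4a encodes an inhibitory receptor of the leukocyte immunoglobulin-like family (ENSMUSG00000112148.1, mm10 chr10:51490956-51496611, plus strand). In sham mice 7, 8, 3 and 10 reads were counted on it, which is 0.398, 0.499, 0.172 and 0.603 CPM. In BCAS mice the counts were 1142, 161, 665 and 411, which is 50.2, 8.29, 35.9 and 22.4 CPM. The lowest BCAS mouse was thus far above the highest sham mouse, although the BCAS mice spread widely. The mean rose from 0.418 ± 0.184 to 29.2 ± 18.0 CPM (SD, n = 4 each), with a log2 fold change of 6.12 (SE 0.64) and an adjusted p of 0.00146 by edgeR's quasi-likelihood test. Since 1 sham library held only 3 counts, the ratio of the summed counts per depth is also given, which was 72.8 with an exact 95% interval of 50.2 to 110, covering counting error only. Of its 5227 exon bases, 35.85% are shared with Gm40645 on the opposite strand and Gm49339 on the same strand, and reads that fall on more than 1 gene were not counted. Neither of these overlapping genes held more than 4 counts in any library.

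Cd300lf, also known as CLM-1, is an inhibitory receptor for lipids such as phosphatidylserine and ceramide (ENSMUSG00000047798.15, chr11:115116214-115133992, minus strand). It had 3, 3, 2 and 5 counts in sham mice, or 0.170, 0.187, 0.114 and 0.302 CPM. In BCAS mice it had 703, 87, 365 and 210 counts, or 30.9, 4.48, 19.7 and 11.4 CPM. The groups were far apart, and the BCAS mice stood in the same order as for Lilrb4a, with mouse 1 highest and mouse 2 lowest. The gene rose with a log2 fold change of 6.39 (SE 0.71, adjusted p 0.00163 by edgeR's quasi-likelihood test), and the ratio of summed counts was 89.9 (52.4 to 169, exact 95% interval for counting error). Cd300a (ENSMUSG00000034652.12, chr11:114890041-114904654, plus strand), a receptor for phosphatidylserine and phosphatidylethanolamine from the same gene cluster, was at 1.59, 2.12, 1.77 and 1.39 CPM in sham mice. In BCAS mice it was at 35.1, 2.83, 27.3 and 8.50 CPM. Here BCAS mouse 2 lay just above the highest sham mouse, whereas BCAS mouse 1 was 12.4 times as high as BCAS mouse 2. Cd300a rose with a log2 fold change of 3.42 (SE 0.71, adjusted p 0.00994 by edgeR's quasi-likelihood test), a call that was lost with limma-voom (adjusted p 0.0856). The Cd300 genes are close relatives, so that part of their reads may be assigned less surely.

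Pirb, the paired immunoglobulin-like receptor B, binds MHC class I and the myelin protein Nogo (ENSMUSG00000058818.13, chr7:3711409-3720391, minus strand). Sham mice held 12, 16, 5 and 14 counts, or 0.682, 0.998, 0.286 and 0.845 CPM. BCAS mice held 513, 23, 333 and 80 counts, or 22.6, 1.18, 18.0 and 4.36 CPM. As for Cd300a, BCAS mouse 2 lay close to the sham range, and BCAS mouse 1 was 19.0 times as high as it, the widest spread among the 6 called genes. Pirb rose with a log2 fold change of 4.03 (SE 0.88, adjusted p 0.0121 by edgeR's quasi-likelihood test). This call was lost with limma-voom (adjusted p 0.105) and when the test was made against a log2 fold change of 1 (glmTreat, adjusted p 0.0504). Pirb resembles the activating Pira genes in sequence, and how their reads were divided cannot be read from gene counts.

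Pilra, an inhibitory receptor for sialylated O-glycoproteins (ENSMUSG00000046245.13, chr5:137821952-137836281, minus strand), had the lowest level in BCAS mice among the called genes. It held 4, 2, 3 and 5 counts in sham mice and 127, 14, 74 and 42 counts in BCAS mice. The corresponding levels were 0.227, 0.125, 0.172 and 0.302 CPM and 5.58, 0.721, 4.00 and 2.29 CPM. The groups did not overlap, and the order of the BCAS mice was again 1, 3, 4 and 2. Pilra rose with a log2 fold change of 3.89 (SE 0.66, adjusted p 0.00500 by edgeR's quasi-likelihood test) and a ratio of summed counts of 15.7 (9.20 to 29.2, exact 95% interval for counting error). It shares 15.15% of its exon bases with Zcwpw1 on the opposite strand.

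The promoters of Pirb, Cd300lf and Pilra are shown because, of the genes with a window, these 3 held a match to 1 of 3 motifs that were searched, and all 3 genes were called higher. The windows come from RefSeq (GRCm38.p6, the assembly behind mm10), which gave promoters for 8 of the 10 genes, all but Lilrb4a and Sirpa. Each search ran over 250 bases before to 50 bases after the annotated start, on both strands, and 270 bases ending 20 bases after the start are printed 5′ to 3′ on the gene's strand. Capitals mark GAGGAAGT (the letters of a PU.1 site, PU.1 being the myeloid transcription factor encoded by Spi1) in Pirb (chr7:3720363-3720632) and Cd300lf (chr11:115133973-115134242). In Pilra (chr5:137836259-137836528) they mark the letters of an interferon-stimulated response element (ISRE type, TTTC and again TTTC with 2 bases of any kind between), read on the other strand.
Pirb: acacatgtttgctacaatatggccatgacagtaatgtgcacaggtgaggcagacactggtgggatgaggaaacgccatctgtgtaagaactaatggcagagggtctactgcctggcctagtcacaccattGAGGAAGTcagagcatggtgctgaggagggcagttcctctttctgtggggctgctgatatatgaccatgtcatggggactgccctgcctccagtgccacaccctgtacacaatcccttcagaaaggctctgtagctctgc
Cd300lf: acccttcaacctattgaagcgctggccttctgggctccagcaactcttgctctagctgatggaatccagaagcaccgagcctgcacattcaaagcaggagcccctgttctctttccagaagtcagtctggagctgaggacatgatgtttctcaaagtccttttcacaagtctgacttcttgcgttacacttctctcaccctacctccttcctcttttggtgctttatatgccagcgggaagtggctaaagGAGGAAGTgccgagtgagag
Pilra: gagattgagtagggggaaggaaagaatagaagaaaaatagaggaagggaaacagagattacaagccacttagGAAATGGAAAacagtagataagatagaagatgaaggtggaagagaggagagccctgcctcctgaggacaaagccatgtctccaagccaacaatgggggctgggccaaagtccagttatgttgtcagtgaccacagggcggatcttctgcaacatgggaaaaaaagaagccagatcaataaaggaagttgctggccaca

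The match in Pirb began 120 bases before the annotated start, that in Pilra 178 bases before it, and that in Cd300lf at the start itself. Among 32851 RefSeq promoter windows of the same length, GAGGAAGT was found in 3.20% and the ISRE-type motif in 3.44%. The third motif, TTCNNNGAA (the letters of a STAT site), stood in 8.30% of all windows and in none of these genes. Cd300a, Cd33, Siglece, Cd47 and Cd200 held none of the 3 motifs in their windows. A match describes letters and does not show that a factor binds there.

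Cd33 and Siglece belong to the Siglecs, receptors that bind sialic acids on glycans. Cd33 (ENSMUSG00000004609.11, chr7:43524216-43544428, minus strand) was the best measured of the called genes, with 261 to 285 counts in sham and 984 to 3546 counts in BCAS mice. Its level was 15.8, 16.3, 16.3 and 16.8 CPM in sham mice and 156, 50.7, 94.6 and 95.2 CPM in BCAS mice. The sham mice were almost equal, and every BCAS mouse was above them. The mean rose from 16.3 ± 0.399 to 99.1 ± 43.2 CPM (SD, n = 4 each), with a log2 fold change of 2.60 (SE 0.29) and an adjusted p of 0.00166 by edgeR's quasi-likelihood test. Siglece (ENSMUSG00000030474.9, chr7:43651070-43660161, minus strand), in the same gene cluster, was at 1.19, 0.562, 0.629 and 0.965 CPM in sham mice. In BCAS mice it was at 2.95, 0.824, 3.62 and 1.09 CPM, so that BCAS mice 2 and 4 lay within the sham range and BCAS mice 1 and 3 above it. Its log2 fold change was 1.33 (SE 0.51) and it was not called (adjusted p 0.0731 by edgeR's quasi-likelihood test). Without BCAS mouse 2 it passed the threshold (log2 fold change 1.61, adjusted p 0.0162), as it did with DESeq2 on all mice (adjusted p 0.0471). Without BCAS mouse 3 the log2 fold change was 0.96 (adjusted p 0.195), and on all mice limma-voom gave 1.12 (adjusted p 0.152), limma on log2(CPM + 1) 0.67 (0.115) and edgeR with a replicate block 1.18 (0.0960).

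Sirpa, the receptor for Cd47, is made by myeloid cells and also by neurons (ENSMUSG00000037902.18, chr2:129592835-129632228, plus strand). It was at 551, 557, 548 and 539 CPM in sham mice and at 887, 604, 731 and 705 CPM in BCAS mice. All BCAS mice were above all sham mice, by a small margin for mouse 2. The mean was 549 ± 7.68 CPM in sham and 732 ± 117 CPM in BCAS mice (SD, n = 4 each). The log2 fold change of 0.41 (SE 0.13, adjusted p 0.0359 by edgeR's quasi-likelihood test) was below the fold threshold. The adjusted p exceeded 0.05 when any sham mouse, BCAS mouse 3 or BCAS mouse 4 was left out (0.0711 to 0.0930) and with the replicate number as a block (0.0869).

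**Figure D2:**
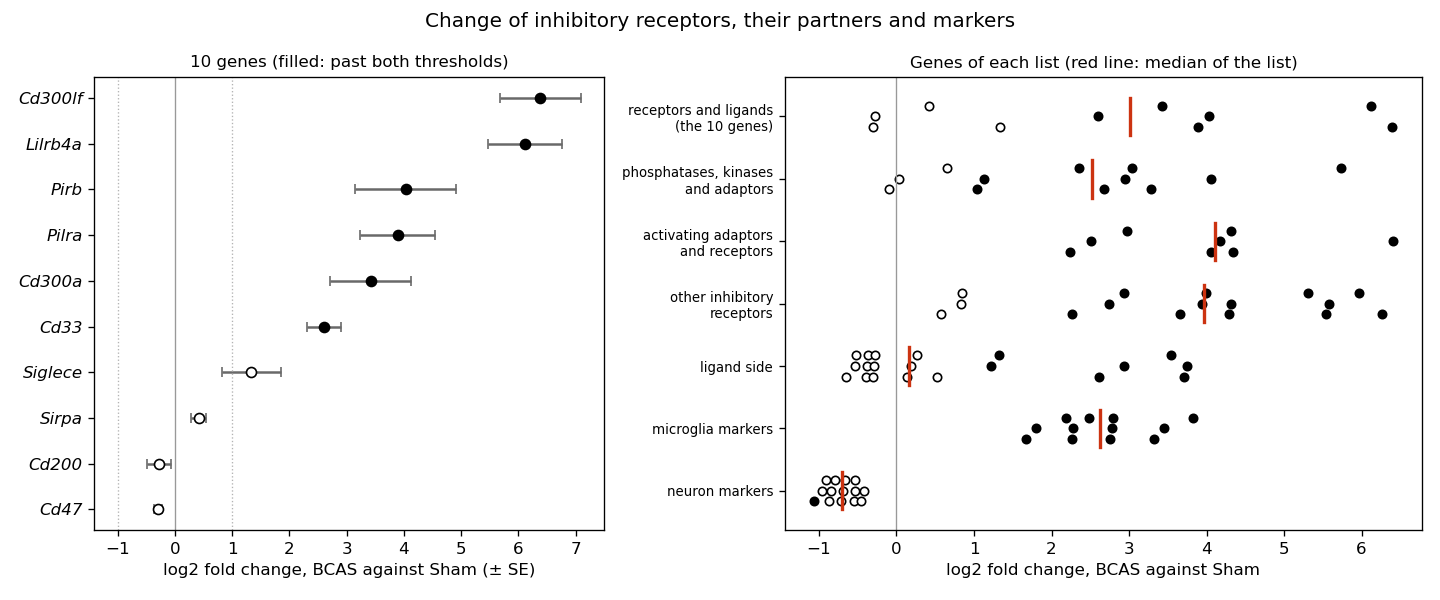
Left, log2 fold change of BCAS over sham mice for the 10 genes, with bars of 1 SE from edgeR's fit, and dotted lines at the fold threshold. Right, log2 fold changes of the same 10 genes, of the 4 partner lists and of the microglia and neuron markers, with filled points for called genes and a red line at the median of each list. Lilrb4a and Cd300lf stand highest among the 10 genes, at 6.12 and 6.39.

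The ligand Cd47 (ENSMUSG00000055447.19, chr16:49800533-49915010, plus strand) is a broadly expressed membrane protein. Its level was 165, 165, 161 and 161 CPM in sham mice and 129, 143, 132 and 126 CPM in BCAS mice. Every BCAS mouse was below every sham mouse, and the spread within the groups was small. The mean was 163 ± 2.66 CPM in sham and 133 ± 7.32 CPM in BCAS mice (SD, n = 4 each). The log2 fold change was -0.30 (SE 0.07, adjusted p 0.0167 by edgeR's quasi-likelihood test), again below the fold threshold. The adjusted p was 0.0516 to 0.0523 when sham mouse 1, sham mouse 2 or BCAS mouse 4 was left out, and 0.0563 with the replicate number as a block. Cd200 (ENSMUSG00000022661.14, chr16:45382135-45409053, minus strand), a membrane protein of neurons and endothelial cells, was at 93.5, 98.7, 128 and 85.6 CPM in sham mice. In BCAS mice it was at 56.3, 115, 87.8 and 75.5 CPM. The groups overlapped, since BCAS mouse 2 was above 3 of the 4 sham mice. The log2 fold change of Cd200 was -0.28 (SE 0.21), and it was not called (adjusted p 0.319 by edgeR's quasi-likelihood test). It ran from -0.12 without BCAS mouse 1 to -0.46 without BCAS mouse 2 (adjusted p 0.632 and 0.0624), and was -0.16 without sham mouse 3. The direction of Sirpa, Cd47 and Cd200 was kept under all 3 other scalings of the libraries.

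Compared per length, as CPM per kilobase of exon, Sirpa was the most abundant of the 10 genes in sham cortex with a mean of 112. Cd200 (30.6 ± 5.60) and Cd47 (26.0 ± 0.424) followed, and the order of these 2 neighbours was within their spread. Cd33 came next with 2.10, then Siglece (0.453 ± 0.160) and Cd300a (0.363 ± 0.0657), which were also within their spread of each other. Pirb (0.157), Lilrb4a (0.0800), Pilra (0.0668) and Cd300lf (0.0376) were the lowest. In BCAS mice Sirpa (149), Cd200 (25.2 ± 7.36), Cd47 (21.1 ± 1.17) and Cd33 (12.8 ± 5.56) kept their places at the top by their means. The order of Cd200 and Cd47 was again within their spread, and in BCAS mouse 1 Cd200 was below both Cd47 and Cd33. Lilrb4a (5.59), Cd300a (3.89), Cd300lf (3.23) and Pirb (2.58) now stood above Siglece (1.15) and Pilra (1.02). In each BCAS mouse Lilrb4a, Cd300a and Cd300lf were above Siglece and Pilra, whereas Pirb was below Siglece in BCAS mouse 2.

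The 7 receptors other than Sirpa were also set against their own sum per length in each mouse. This sum was 3.35, 3.24, 2.99 and 3.43 CPM per kilobase in the sham group and 51.5, 10.5, 35.9 and 22.9 in the BCAS group. Cd33 made up 60.7, 64.6, 70.2 and 62.9% of it in sham and 38.9, 62.0, 33.9 and 53.6% in BCAS mice, with overlapping groups. Lilrb4a made up 2.27, 2.95, 1.10 and 3.36% in sham and 18.6, 15.1, 19.1 and 18.7% in BCAS mice, so that BCAS mouse 2, with the smallest sum, was close to the other BCAS mice on this measure. Cd300lf likewise made up 1.14 ± 0.409% in sham and 10.1 ± 1.44% in BCAS mice (SD, n = 4 each) without overlap. Siglece made up 13.8 ± 4.37% in sham and 3.84 ± 1.28% in BCAS mice, lower in every BCAS mouse. The shares of Cd300a (11.2% and 11.0%), Pirb (4.77% and 6.94%) and Pilra (2.04% and 3.14%) overlapped between the groups.

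**Figure D3:**
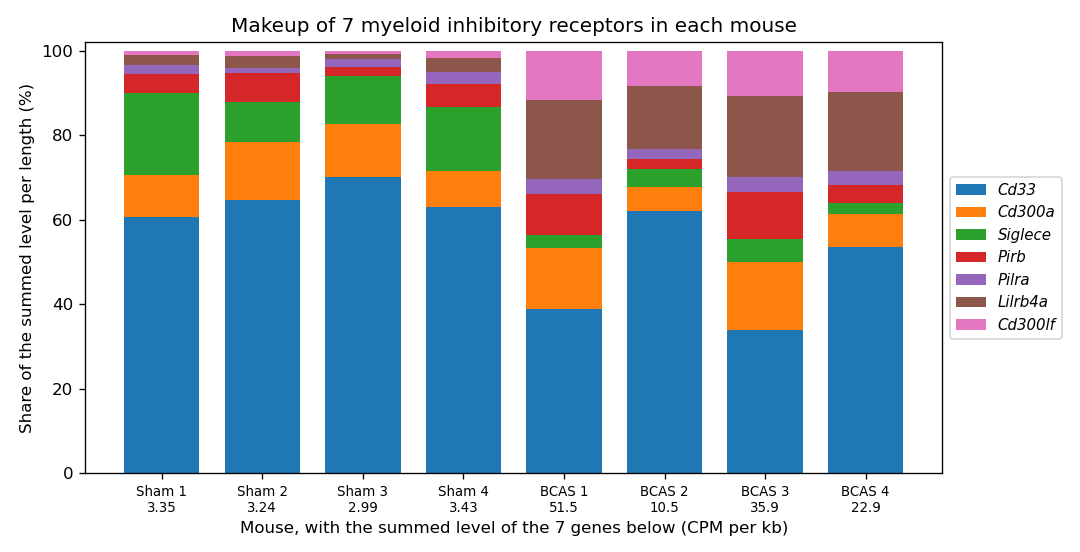
Share of each of 7 inhibitory receptors (all but Sirpa) in their summed level per length, in percent, for each mouse, with the sum in CPM per kilobase under the mouse number. The shares of Lilrb4a and Cd300lf are larger and that of Siglece is smaller in all 4 BCAS mice than in any sham mouse.

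Markers of myeloid cells moved with these receptors. All 12 microglia markers (such as Csf1r and Cx3cr1) were called higher, where 11.0% of all tested genes were, with a median log2 fold change of 2.62 and a summed level of 598 to 683 CPM in sham and 2068 to 7174 CPM in BCAS mice. Of 12 pan-myeloid markers 11 were called higher (median 3.80, sum 248 to 272 and 1106 to 4680 CPM), and of 8 markers of border macrophages 5 were called higher (Mrc1, Lyve1, F13a1, Ms4a7 and Cbr2, sum 17.5 to 21.8 and 32.6 to 120 CPM). Among 6 monocyte markers 4 were tested and Ly6c2, Ccr2 and Fn1 were called higher, and Ly6c2, which reached the filter's level in no sham library, was tested through its BCAS libraries. Ccr2, the chemokine receptor of inflammatory monocytes, had 7, 21, 15 and 6 counts in sham and 922, 39, 446 and 123 counts in BCAS mice. None of 8 neutrophil markers passed the filter (sum 0.437 to 0.966 CPM in sham and 0.927 to 12.2 CPM in BCAS mice), and Ly6g was at 0 in all libraries. The part that each cell type had in the receptor levels was not tested.

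Each gene's log2 CPM was therefore also read relative to the mean log2 CPM of the 12 microglia markers in the same mouse, with the sham mean set to 0. On this scale Lilrb4a was at 3.24, 2.41, 3.80 and 2.95 in the BCAS mice and Cd300lf at 3.30, 2.30, 3.69 and 2.75, all above the sham mice, whose highest values were 0.50 and 0.46. Of all tested genes 1.31% were higher without overlap on this scale and 92.3% were lower, but since being tested already depended on the BCAS libraries for these 2 genes, the shares are no support for them. Cd33 was at -0.16, -0.03, 0.15 and -0.00, within the sham range of -0.11 to 0.13 or close to it, so that its level and the microglia markers were higher by a like amount. Pirb (mean 0.70), Pilra (0.58) and Cd300a (0.29) overlapped with the sham mice, as did Siglece (-1.45). Leaving out BCAS mouse 3 or BCAS mouse 2 moved Pirb to 0.20 or 1.23, Pilra to 0.32 or 0.85 and Cd300a to -0.13 or 0.71. Pirb and Cd300a were below the sham mean in BCAS mouse 2, at -0.89 and -0.96, and above the sham mice in BCAS mice 1 and 3. Sirpa was lower in every BCAS mouse, by a mean of -2.10. Relative to the 12 pan-myeloid markers, Lilrb4a (2.21) and Cd300lf (2.11) were still above all sham mice (of all tested genes 0.508% were higher and 96.5% lower without overlap, with the same limit), while Cd33 (-0.91), Siglece (-2.34) and Sirpa (-2.99) were below all sham mice and Pirb (-0.19), Pilra (-0.31) and Cd300a (-0.61) changed sign.

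**Figure D4:**
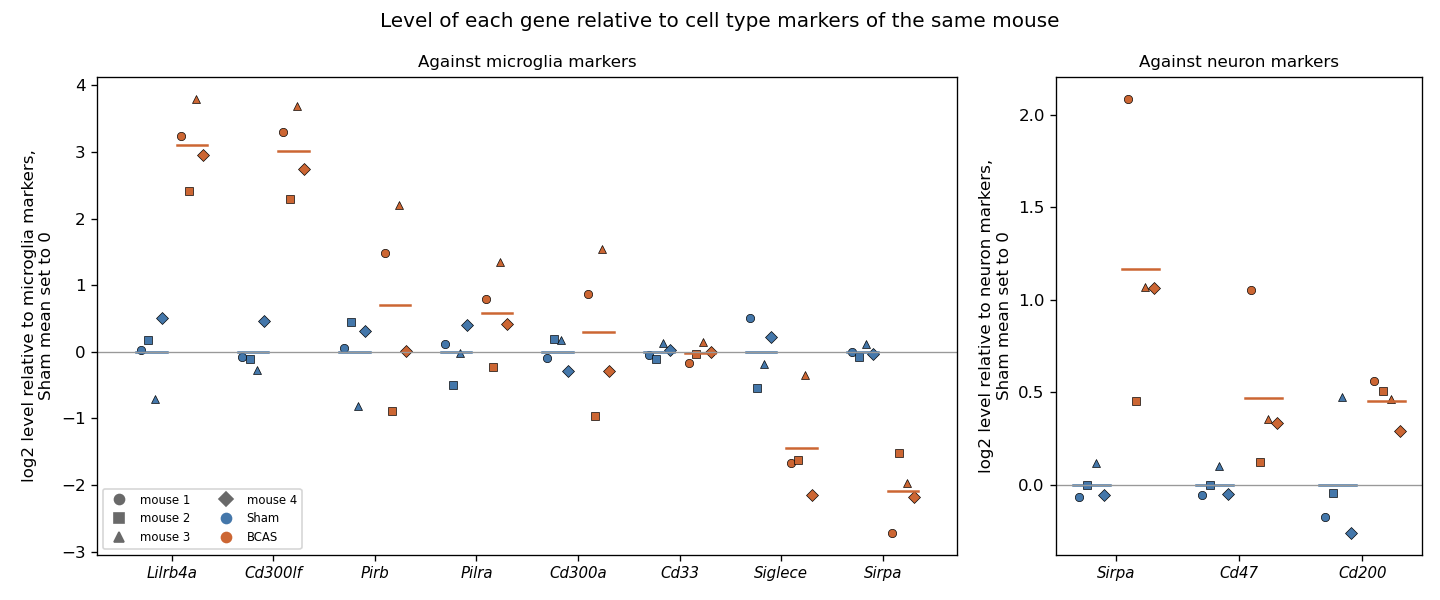
Left, log2 level of the 8 receptors relative to the mean log2 level of the 12 microglia markers in the same mouse, with the sham mean at 0, and right, the same for Sirpa, Cd47 and Cd200 relative to the 14 neuronal markers. Blue marks are sham mice and orange marks are BCAS mice, 4 each, and lines are group means. On the left Lilrb4a and Cd300lf lie between 2.30 and 3.80 in BCAS mice, Cd33 lies near 0 and Sirpa lies below 0.

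Relative to 14 neuronal markers, 10 of which were lower at an adjusted p under 0.05 (edgeR's quasi-likelihood test, 1 of them, Snap25, past the fold threshold), Cd47 was at 1.05, 0.13, 0.36 and 0.34 in BCAS mice, above all sham mice (highest 0.10), while 61.3% of all tested genes were higher and 0.473% lower without overlap on this scale. Cd200 was at 0.56, 0.51, 0.46 and 0.29, with sham mice between -0.26 and 0.48, so that the groups overlapped. Sirpa was at 2.09, 0.45, 1.07 and 1.06, above all sham mice. Cd200 thus overlapped between the groups on both scales, and the higher value of Cd47 on this scale was shared by most tested genes.

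The ratio of Sirpa to Cd47, taken from CPM per kilobase, was 4.27, 4.31, 4.36 and 4.29 in sham mice. In BCAS mice it was 8.81, 5.40, 7.06 and 7.13. On the log2 scale the ratio was 2.11 ± 0.0126 in sham and 2.81 ± 0.289 in BCAS mice (SD, n = 4 each), a difference of 0.70 without overlap of the groups. The ratio of Cd200r1, the receptor of Cd200 on microglia and macrophages, to Cd200 was 0.0139, 0.00251, 0.00620 and 0.0112 in sham mice. In BCAS mice it was 0.126, 0.00936, 0.0574 and 0.0379, and BCAS mouse 2 lay within the sham range. Cd200r1 itself had 23, 4, 14 and 16 counts in sham and 162, 21, 94 and 53 counts in BCAS mice, and was called higher with a log2 fold change of 2.27 (SE 0.61, adjusted p 0.0242 by edgeR's quasi-likelihood test) although the groups overlapped.

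**Figure D5:**
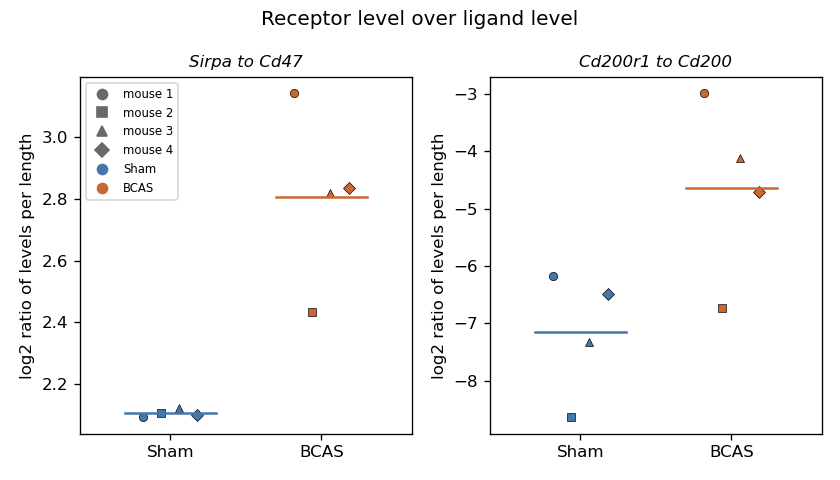
Log2 ratio of Sirpa to Cd47 (left) and of Cd200r1 to Cd200 (right) in each mouse, from CPM per kilobase. Points are mice, 4 per group, and lines are group means of the log2 ratio. The log2 ratio of Sirpa to Cd47 averages 2.11 in sham and 2.81 in BCAS mice without overlap, and the Cd200r1 to Cd200 ratios overlap.

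Of 12 genes for the phosphatases, kinases and adaptors that work on ITIM tails, 9 were called higher and none lower, with a median log2 fold change of 2.52 (of all tested genes 11.0% were called higher). Fgr reached the filter's level of 0.558 CPM in no sham library and thus had to differ. Ptpn6 (SHP-1), the phosphatase of blood cells, was at 4.83, 6.36, 3.37 and 3.08 CPM in sham and 132, 24.4, 73.4 and 63.7 CPM in BCAS mice (log2 fold change 4.06, SE 0.50, adjusted p 0.00201 by edgeR's quasi-likelihood test). The Src-family kinases Fgr and Lyn rose by 5.74 and 3.04 on the log2 scale. Ptpn11 (SHP-2), which most cell types make, was at 236 ± 19.5 CPM in sham and 240 ± 15.1 CPM in BCAS mice (SD, n = 4 each), with a log2 fold change of 0.03 (SE 0.09) and an adjusted p of 0.832 by edgeR's quasi-likelihood test. The adaptor Grb2 was likewise not called (-0.10), and Inppl1 (0.65) had an adjusted p of 0.0434 by edgeR's quasi-likelihood test but was below the fold threshold.

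Among activating counterparts, 16 of 21 listed symbols were matched in the tables, 8 were tested and all 8 were called higher (Tyrobp, Fcer1g, Hcst, Syk, Trem2, Cd300lb, Cd300c2 and Siglech), where 11.0% of all tested genes were. Cd300lb reached the filter's level in no sham library and Hcst in 1 (by CPM without TMM scaling), so that these 2 genes passed through their BCAS libraries. The signalling adaptors Tyrobp (DAP12) and Fcer1g rose by 4.32 and 4.17 on the log2 scale and the lipid receptor Trem2 by 4.34. Cd300lb, an activating relative of Cd300lf, had 2, 2, 0 and 0 counts in sham and 242, 14, 162 and 40 counts in BCAS mice. The untested 8 (Pilrb1, Pilrb2, Sirpb1a, Sirpb1b, Sirpb1c, Cd300ld, Cd300e and Pira2) had at most 3 counts in any sham library. Pilrb1, the activating partner of Pilra, had no count in any sham mouse and 15, 0, 11 and 2 counts in the BCAS mice, and Sirpb1a, a relative of Sirpa, had 0, 1, 0 and 2 in sham and 49, 0, 27 and 13 in BCAS mice.

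Of 20 other leukocyte receptors listed by name as inhibitory, 16 were tested. Whether each carries an inhibitory motif was not examined. Of the 16, 13 were called higher and none lower, where 11.0% of all tested genes were called higher. Lilr4b and Milr1 reached the filter's level in no sham library, and Clec12a, Siglecf, Siglec1, Cd22, Cd72 and Cd5 in 1. Being tested therefore already depended on the BCAS libraries for these genes (for Clec12a on 3 of them and 1 sham library), and the count is no support for a shift of the list. Lilr4b, the neighbour and close paralog of Lilrb4a, had 9, 4, 1 and 0 counts in sham and 762, 25, 431 and 137 in BCAS mice (log2 fold change 6.27, SE 1.15, adjusted p 0.00648 by edgeR's quasi-likelihood test). BCAS mouse 1 was 26.0 times as high as BCAS mouse 2 for Lilr4b, and 6.05 times for Lilrb4a. The sialic acid receptors Siglec1 and Cd22 rose by 5.97 and 5.54, and Cd72 rose by 5.58 on the log2 scale. Cd22 and Cd72 are also known from B cells. Of 12 lymphocyte markers 4 were tested and 3 were called higher (Cd8a, Cd4 and Cd79b), where 11.0% of all tested genes were. Cd8a and Cd79b reached the filter's level in no sham library and were tested through their BCAS libraries. The other tested marker, Trbc2, was not called and changed in the other direction (log2 fold change -0.67). It was at 11.5, 8.61, 5.15 and 11.8 CPM in sham and 7.69, 3.97, 7.51 and 4.14 CPM in BCAS mice, and is part of the sum given next. The summed level of the 12 lymphocyte markers was 7.89 to 15.3 CPM in sham and 11.4 to 88.7 CPM in BCAS mice, and their part in these receptors was not tested. The uncalled receptors were Pecam1 (0.58) and Ceacam1 (0.85), with adjusted p of 0.0283 and 0.0404 by edgeR's quasi-likelihood test but below the fold threshold, and Clec4a2 (0.83).

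On the ligand side, 20 of 21 genes were tested, and 7 were called higher and none lower (median log2 fold change 0.16), where 11.0% of all tested genes were called higher. A further 7, Cd47 among them, were lower at an adjusted p under 0.05 but below the fold threshold (edgeR's quasi-likelihood test), as were 12.8% of all tested genes by the adjusted p alone. The 3 genes of MHC class I, the ligands of Pirb, rose together, with H2-D1 at 3.75, H2-K1 at 3.71 and B2m at 3.54 on the log2 scale. H2-K1 was at 35.0, 41.0, 29.9 and 39.1 CPM in sham and 893, 158, 499 and 351 CPM in BCAS mice. This order of BCAS mice was that of Pirb, but also of Lilrb4a, Pilra, Cd300a, Tyrobp and Apoe, so it is not particular to Pirb. Apoe, a lipid carrier, rose by 2.61, the Cd47 ligands Thbs1 and Thbs2 by 2.94 and 1.32, and the sialyltransferase St6gal1 by 1.22. The groups overlapped for Thbs1, with 7.55 CPM in sham mouse 3 and 7.42 CPM in BCAS mouse 2. Of the other genes of sialic acid transfer and activation, St3gal2 (-0.29), St3gal3 (-0.40), St3gal5 (-0.65) and Cmas (-0.38) were lower at an adjusted p under 0.05 and below the fold threshold. St3gal1 (0.14), St3gal4 (0.26) and St6galnac4 (0.52) had positive log2 fold changes with an adjusted p above 0.05 (edgeR's quasi-likelihood test). The Nogo gene Rtn4, another source of Pirb ligand, was at 777 ± 20.1 CPM in sham and 603 ± 65.2 CPM in BCAS mice (SD, n = 4 each), a log2 fold change of -0.37 (adjusted p 0.0336 by edgeR's quasi-likelihood test) below the fold threshold. The myelin gene Mag was not called (0.19, adjusted p 0.400 by the same edgeR test).

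The genes most like each of the 10 were taken as the 3 with the smallest root-mean-square difference in log2 CPM over the 8 mice, after subtracting each gene's sham mean, keeping only genes whose mean count was 50 or more. Lilrb4a and Cd300lf were each other's nearest gene, with a difference of 0.208, and shared Cd52 among the 3. Cd33 lay next to 3 lysosomal genes, Man2b1 (0.0676), Hexa (0.102) and Npc2 (0.113). Pirb was nearest to Ms4a6d (0.399), Pilra to Abcc3 (0.180) and Siglece to Cemip (0.258). Cd300a was nearest to Col1a1 (0.221), a collagen gene of fibroblasts, then to Tgfbi (0.222) and Loxl2 (0.253). Sirpa was nearest to Fmnl2 (0.0238), Cd47 to Denr (0.0309) and Cd200 to Srsf12 (0.0708). Genes that all changed by a like amount come out as near on this measure, and the number of candidates is large.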

How the data were processed

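Per the labels, reads went through Trim Galore, HISAT2 (genome mm10) and SAMtools 1.9. The authors deposited raw featureCounts counts per gene for each mouse, without normalization. The headers name featureCounts 2.0.1 and GENCODE vM20 and give no strand option, whereas the labels name release 1.6.3. Gene symbols were matched for 54723 of 54752 identifiers through the reference's gene table. The counts were analysed with edgeR 4.0.16 in R 4.3.3, using TMM, filterByExpr (minimum count 10, minimum total 15) and the quasi-likelihood test without covariates. The study used limma on normalized log2 counts and also DESeq2 (version 1.16.1 per the labels), and both tools are alternatives here. SE is the log2 fold change over the square root of F. For relative levels, log2 CPM had a prior count of 2. Ratios of summed counts carry exact 95% intervals, and these cover counting error only. At the smallest depth 3 counts are 0.179 CPM. On data simulated with the same dispersion for all genes in both groups, the procedure called changed genes with the right sign. The simulation did not include the wider spread among the BCAS mice, so it does not show how the test performs at that spread.

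Named genes were the 10 members, from each partner list up to 4 called genes with the largest change and a mean of at least 50 counts, the 2 uncalled genes with the highest mean count, and the 3 genes most like each member. Further partner genes and markers were named after their values were seen, and some named by the rule are not reported here. The members and lists were chosen with earlier results of these data known. Alternatives were other scalings (DESeq2's size factors, the upper quartile, library size alone), filters, thresholds, DESeq2 1.42.0, limma 3.58.1, robust edgeR, a replicate block and leaving out each mouse. Figures were drawn with matplotlib 3.10.9.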

Additional observations from a re-analysis of the deposited data

Results flagged for a closer look

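In 92 groups of 4 mice, each holding 1 gene's CPM, relative level or ratio, 3 had a mouse far from the other 3 by Dixon's test, and chance flags about 1 in 20 groups. The level of Fgr was 0.543 CPM in sham mouse 4, beside 0.114, 0.125 and 0.114 CPM in the other sham mice, where it rests on 2 counts each. The level of Cd72 was 0.739 CPM in sham mouse 1, beside 0.437, 0.458 and 0.422 CPM in the others. The level of B2m was 75.3 CPM in sham mouse 3, beside 93.3, 95.0 and 94.7 CPM. None of the 10 members was among them.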

How the results depend on the processing

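Of 436 values recomputed for 30 results, 411 were taken as unchanged. Fold changes were taken so if direction and call were kept. Relative levels and ratios were taken so if they kept their direction and moved less than the spread between mice. Counts of genes had a wide margin, so that 2967 called genes against 2097 and 6 ITIM partners against 9 passed as unchanged. A member that was no longer tested gave no fold change and is not among the 436. Over all 17136 tested genes 2097 were called, against 5490 by the adjusted p alone and 744 with glmTreat. With at least 10 counts required in every library, 5 members were tested and 2 called in place of 6 (Cd300a and Cd33), and 4 of the other inhibitory receptors in place of 13, since fewer genes were tested. With DESeq2, 14 activating counterparts were called in place of 8, with 16 tested in place of 8, and edgeR without the filter called 12. By the adjusted p alone 14 ligand-side genes were called in place of 7. Relative to microglia markers the groups did not overlap for 3 receptors (Lilrb4a and Cd300lf higher, Sirpa lower). Of all tested genes 1.31% were higher and 92.3% lower without overlap on this scale. Relative to pan-myeloid markers they did not overlap for 5 receptors, with Cd33 and Siglece added as lower (0.508% of all tested genes higher, 96.5% lower). The lower position of Sirpa, Cd33 and Siglece was thus shared by most tested genes. Relative to pan-myeloid markers the mean of Pirb turned to -0.19, of Pilra to -0.31 and of Cd300a to -0.61. Relative to microglia markers and leaving out each mouse, Cd300a ran from -0.13 (without BCAS mouse 3) to 0.71 and Cd33 from -0.066 to 0.040 (without BCAS mouse 1, and 0.030 without sham mouse 3). Leaving out each mouse gave 1644 to 2967 called genes (fewest without BCAS mouse 1, most without BCAS mouse 2) and 6 to 7 called members. It gave 6 to 9 ITIM partners, 8 to 10 activating counterparts, 11 to 15 other inhibitory receptors and 7 ligand-side genes. It also left 3 to 4 receptors without overlap of the groups relative to microglia markers. The difference in the log2 ratio of Sirpa to Cd47 was 0.59 to 0.82 and that of Cd200r1 to Cd200 was 1.96 to 3.21. Sham and BCAS mice of the same number shared only a number (correlations of their deviations -0.103 to 0.001). A fit with the replicate number as a block called 1809 genes, 6 members, 7 ITIM partners in place of 9 and 12 other inhibitory receptors in place of 13. With limma-voom 4 members, 7 ITIM partners and 9 other inhibitory receptors were called. With limma on log2(CPM + 1), a scale that understates changes of low genes, the same 6 members were called, and the log2 fold change was 4.17 for Lilrb4a, 3.61 for Cd300lf, 2.34 for Pirb, 1.62 for Pilra, 2.36 for Cd300a and 2.43 for Cd33. Leaving out 1 mouse moved Pirb relative to microglia markers from 0.20 to 1.23, Pilra from 0.32 to 0.85, and Cd47 relative to neuronal markers from 0.27 (without BCAS mouse 1) to 0.58. The cause of these shifts was not tested beyond the number of genes tested. Low counts in sham mice limit Pilra, Cd300lf and Lilrb4a, and also Pirb (5 to 16 counts) and Siglece (9 to 21 counts). Pirb and Siglece too were not tested when at least 10 counts were required in every library.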

Other observations

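Markers of other resident cells are given as values. Of 7 astrocyte markers Gfap (log2 fold change 3.90) and Aqp4 (1.65) were called higher, where 11.0% of all tested genes were, and Slc1a3 (0.49), Aldh1l1 (0.52), Gja1 (0.61) and Sox9 (0.84) were higher at an adjusted p under 0.05 by edgeR's quasi-likelihood test but below the fold threshold, where 19.2% of all tested genes were higher by the adjusted p alone. The summed level of the 7 genes was 4510 to 5183 CPM in sham and 6037 to 9107 CPM in BCAS mice. The log2 fold changes of 6 oligodendrocyte markers ran from 0.04 to 0.53 and those of 6 endothelial markers from 0.16 to 0.87, all below the fold threshold. Among these 12 genes Cdh5 (0.87) had an adjusted p of 0.0183 by edgeR's quasi-likelihood test.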
